A study of Homo sapiens with 4 samples.

Results

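The genes of the proteasome were examined in U2OS cells with a knockdown of GREM1 and in control cells. They were taken as every protein-coding gene of the deposited table whose symbol begins with PSMA, PSMB, PSMC, PSMD, PSME, PSMF or PSMG followed by a digit, which gave 49 of 58735 genes. Of these, 47 had enough counts to be tested. PSMA8, an alpha subunit of germ cells, and PSMB11, the beta subunit of the thymus proteasome, had 0 counts in all 4 libraries. PSMC3IP was selected by its symbol alone, since it encodes a factor of meiotic recombination and not a proteasome subunit.

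The proteasome is the protease that degrades proteins tagged with ubiquitin. Its core particle is a barrel of outer alpha rings, which form the gate, and inner beta rings, which hold the active sites of PSMB5, PSMB6 and PSMB7. A regulatory particle on the end of the barrel has a base, with a ring of ATPases that unfold substrates, and a lid, which removes ubiquitin. In cells of the immune system, and in other cells exposed to interferon gamma, PSMB8, PSMB9 and PSMB10 replace the catalytic subunits to form the immunoproteasome. Transcription of the subunits is known to be raised together by NFE2L1 (NRF1), which binds antioxidant response elements with a small MAF partner when the proteasome is inhibited.

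The groups were shGREM1, U2OS cells labelled as GREM1 knockdown, and shControl, U2OS cells labelled as control, with 2 libraries each. U2OS is an established human osteosarcoma line, and GREM1 encodes gremlin 1, a secreted BMP antagonist. The labels give neither the hairpin sequence, the vector, the time after its delivery nor whether each line was 1 clone, and they do not say whether libraries of a group came from separate cultures. The p-values therefore reflect only the scatter of these libraries, and that scatter may be technical. Depth was 16353015 and 15968817 counts in the shGREM1 libraries and 15676556 and 15492826 counts in the shControl libraries. GREM1 itself had 1 and 1 counts in the shGREM1 libraries and 2 and 0 counts in the shControl libraries, so the knockdown could not be checked, and whether a difference between the groups follows from GREM1 cannot be told from these counts. Of 5 mesenchymal and osteoblast markers, VIM, COL1A1, SPARC and RUNX2 were present, with VIM at a mean of 544 CPM (counts per 1000000, scaled by the TMM factors) in shGREM1 and 507 CPM in shControl. The other, COL1A2, was nearly absent, at 20 and 15 counts in shGREM1 and 8 and 9 counts in shControl. Of the 13 markers reported, 10 had enough counts to be tested, and the leukocyte markers PTPRC, CD3E and CD14 did not. COL1A1, SPARC and the epithelial marker EPCAM were the 3 of these 10 that passed the test, all higher in shGREM1. Of all tested genes 3.57% passed as higher. EPCAM averaged 11.1 CPM in shGREM1 against 5.60 CPM in shControl. Summed over 3 epithelial markers the level was 15.6 and 15.8 CPM in shGREM1 and 8.03 and 8.88 CPM in shControl. For 2 endothelial markers it was 7.56 and 11.01 CPM in shGREM1 and 8.87 and 12.9 CPM in shControl. Over 3 leukocyte markers it was 1.16 and 0.81 CPM in shGREM1 and 0.45 and 1.43 CPM in shControl, with CD3E at 0 in every library but shControl-2. The part of these markers in the results below was not tested.

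Proteasome transcripts were slightly less abundant in shGREM1, by an amount that passed the test for PSMG3 alone. Together the 49 genes held 4364 and 4028 CPM in shGREM1-1 and shGREM1-2, against 4806 and 4450 CPM in shControl-1 and shControl-2. Both shGREM1 values lay below both shControl values, with means of 4196 ± 237 CPM in shGREM1 and 4628 ± 252 CPM in shControl (SD, n = 2 each), a difference of -9.34%. With 1 library left out this difference ran from -13.0% without shControl-2 to -5.66% without shGREM1-2, and it was -6.17% without shControl-1. In bulk RNA, fewer cells of a type and less RNA per cell cannot be told apart. The log2 fold change, shGREM1 minus shControl, was below 0 for 39 of the 47 tested members (83.0%) and above 0 for 8, with a median of -0.15, quartiles of -0.24 and -0.07 and a range of -0.78 to 0.22. Over all 18442 tested genes the median was 0.005, with 49.4% below 0, and over the other 14159 protein-coding genes it was -0.01, with 51.8% below 0. Libraries of 1 group also differed: the median member was 0.08 lower on the log2 scale in shGREM1-2 than in shGREM1-1, and 0.11 lower in shControl-2 than in shControl-1. Without shGREM1-2 the members' median was -0.09.

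By edgeR's quasi-likelihood test with Benjamini-Hochberg adjustment over all tested genes, 1 member fell (2.13% of the 47), against 4.12% of all tested genes, and 0 members rose, against 3.57%. At an unadjusted p under 0.05 the count was 11 members lower (23.4%), against 12.1% of all tested genes, and 0 members higher, against 11.1%. Both shGREM1 libraries lay below both shControl libraries for 23 members (48.9%), against 26.6% of all tested genes, and above them for 1 member, PSMG4, against 27.0%. DESeq2 and limma-voom each also called PSMG3 as the only lower member and no higher one. The other 46 tested members did not pass. The plot of all log2 fold changes by role shows how narrow their spread was.

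**Figure D1:**
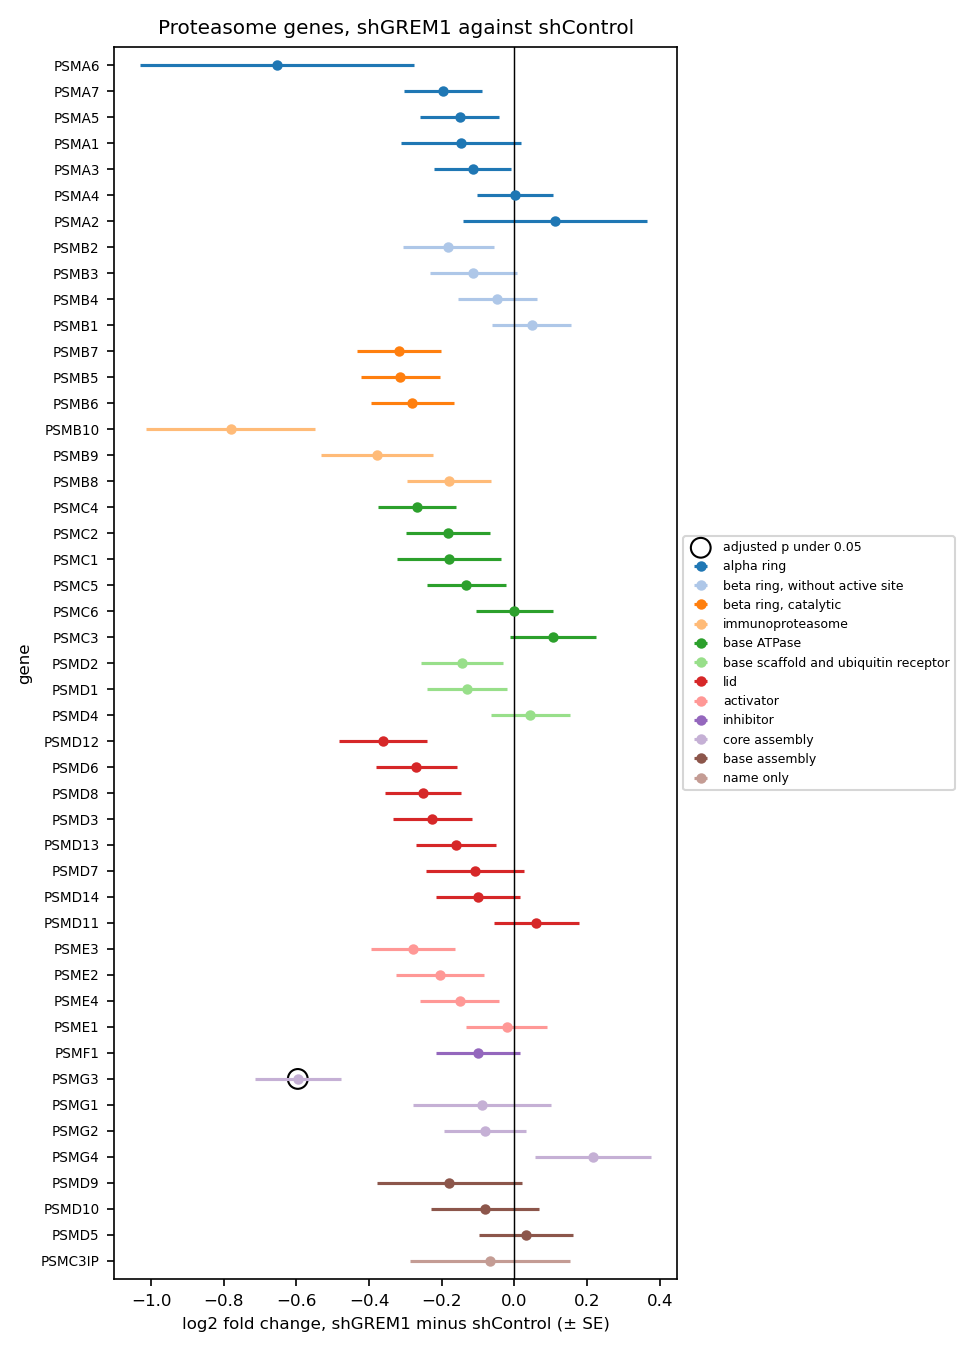
Log2 fold change (shGREM1 minus shControl) of the 47 tested members, grouped by role, with bars of 1 SE from edgeR. Most points lie between -0.4 and 0.2, and PSMG3 is the member that passed at an adjusted p under 0.05.

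**Figure D2:**
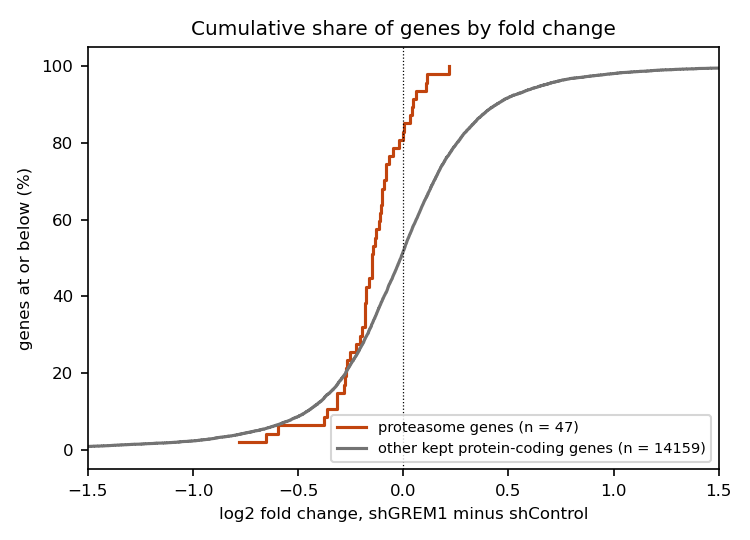
Cumulative share of genes by log2 fold change (shGREM1 minus shControl) for the 47 tested members and for other protein-coding genes. The members' curve is steeper and its median is -0.15, against -0.01 for the other protein-coding genes.

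By summed level, the active-site subunits differed most among the constitutive parts of the core particle. Summed over PSMB5, PSMB6 and PSMB7, the level was 262 and 235 CPM in shGREM1 and 319 and 297 CPM in shControl, a difference of -19.2%. PSMB5, the chymotrypsin-like subunit targeted by bortezomib, had 79.7 and 76.8 CPM in shGREM1 and 102 and 92.4 CPM in shControl, a log2 fold change of -0.31 ± 0.11 (SE; adjusted p = 0.0958 by edgeR). PSMB6, the caspase-like subunit, had 62.0 and 59.3 CPM in shGREM1 and 78.5 and 68.9 CPM in shControl. Both subunits were thus lower in each shGREM1 library than in either shControl library, and for PSMB6 the log2 fold change was -0.28 ± 0.12 (SE; adjusted p = 0.153 by edgeR). PSMB7, the trypsin-like subunit, had 121 and 98.9 CPM in shGREM1 and 138 and 135 CPM in shControl, with a log2 fold change of -0.32 ± 0.12 (SE; adjusted p = 0.112 by edgeR). Without shGREM1-1 the value for PSMB7 was -0.47 (adjusted p = 0.00746 by edgeR), and without shGREM1-2 it was -0.18 (adjusted p = 0.446 by edgeR). All 3 catalytic genes were lower at an unadjusted p under 0.05, as were 12.1% of all tested genes, and with all 4 libraries none passed after adjustment. None of their exon bases are shared with another gene in GENCODE 29.

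The summed levels of the other core subunits differed less, and no test compared these sums. The alpha ring genes PSMA1 to PSMA7, which form the gate and the docking surface, summed to 642 and 616 CPM in shGREM1 and 705 and 677 CPM in shControl, a difference of -8.96%. PSMA7, the most abundant alpha gene, had 281 and 268 CPM in shGREM1 and 329 and 299.9 CPM in shControl, without overlap (log2 fold change -0.20; adjusted p = 0.296 by edgeR). PSMA6 had the lowest value of the ring, -0.65 ± 0.38 (SE; adjusted p = 0.324 by edgeR), on only 24 and 30 counts in shGREM1 and 40 and 41 counts in shControl. PSMA2 had the highest, 0.11 ± 0.25 (SE; adjusted p = 0.844 by edgeR), with 97 and 94 counts in shGREM1 and 76 and 92 counts in shControl. Beta subunits without an active site, PSMB1 to PSMB4, summed to 622 and 527 CPM in shGREM1 and 615 and 592 CPM in shControl, and the groups overlapped for each of the 4 genes. Their log2 fold changes ran from -0.18 for PSMB2 (adjusted p = 0.423 by edgeR) to 0.05 for PSMB1 (adjusted p = 0.850 by edgeR).

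The immunoproteasome genes were all expressed at low to moderate levels, and all 3 were lower in both shGREM1 libraries than in either shControl library, an order that 26.6% of all tested genes showed. PSMB10, which replaces PSMB7 (ENSG00000205220, chromosome 16, 67934502 to 67937087, minus strand, GRCh38), had 79 and 88 counts in shGREM1 and 132 and 141 counts in shControl, or 4.82 and 5.47 CPM in shGREM1 and 8.55 and 9.13 CPM in shControl. Its log2 fold change of -0.78 ± 0.23 was the lowest of all members and missed the threshold (SE; adjusted p = 0.0535 by edgeR, and 0.0258 to 0.204 over the alternatives). PSMB9, which replaces PSMB6, had 21.5 and 17.4 CPM in shGREM1 and 26.3 and 24.4 CPM in shControl, a log2 fold change of -0.38 ± 0.15 (SE; adjusted p = 0.151 by edgeR, and 0.0384 without shGREM1-1). PSMB8, which replaces PSMB5, had 45.7 and 45.9 CPM in shGREM1 and 53.4 and 50.4 CPM in shControl, a log2 fold change of -0.18 ± 0.12 (SE; adjusted p = 0.382 by edgeR). PSMB8 and PSMB9 lie next to each other on chromosome 6 on opposite strands and share 139 exon bases, and without a stated strand setting reads there cannot be told apart.

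The balance between each immunoproteasome gene and the gene it replaces was expressed as a ratio of counts per kilobase of gene length. The percentages depend on the length used, while the log2 differences between groups do not. By all exons, as used here, PSMB8 has 2997 bases and PSMB5 1765, against 1124 and 1008.5 by GENCODE basic transcripts. For PSMB9 and PSMB6 the lengths are 3072 and 1448 bases, against 787 and 861.5. PSMB10 shares 58.3% of its coding bases with another gene on the same strand. For PSMB8 to PSMB5 the ratio was 33.8% and 35.2% in shGREM1 and 30.8% and 32.1% in shControl, a log2 difference of 0.13, higher in both shGREM1 libraries. PSMB9 to PSMB6 gave 16.36% and 13.8% in shGREM1 and 15.8% and 16.7% in shControl, which overlapped. PSMB10 to PSMB7 gave 3.85% and 5.33% in shGREM1 and 5.97% and 6.51% in shControl, a log2 difference of -0.46 that was -0.22 without shGREM1-1. The 3 ratios thus did not move in 1 direction. They are given as values and were not tested. An exact permutation test of 2 libraries against 2 has a smallest two-sided p of 0.3333.

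**Figure D3:**
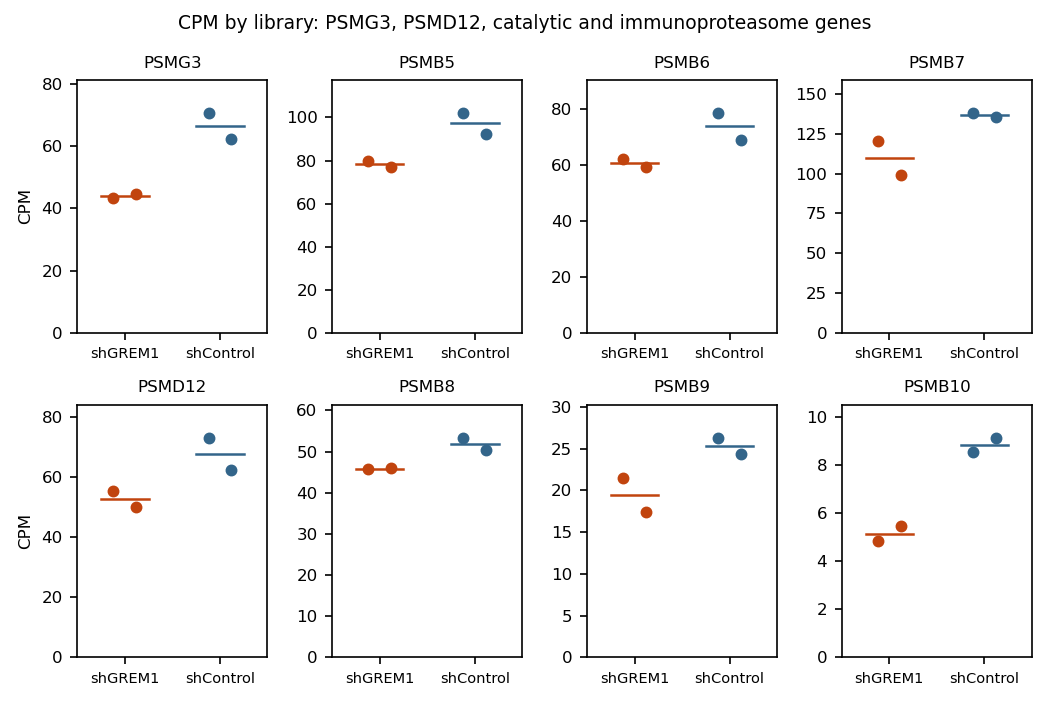
CPM of members in each library, with shGREM1 left of shControl in each panel, points for libraries and lines for group means. In the panels of the 3 catalytic genes and of the 3 immunoproteasome genes the 2 groups do not overlap.

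Promoter sequence was read from RefSeq (GRCh38.p14), which gave the 250 bases before a start site for 43 of the 49 members. No window was available for PSMG3, PSMB6, PSMB7, PSMA7, PSMB1 and PSMD4, so these could not be examined. The windows of the immunoproteasome genes, of PSMB5 and of the lid gene PSMD12 are shown because these genes had the lower values described and because the immunoproteasome genes are known targets of interferon-induced factors. Lower case is the sequence 5′ to 3′ on the gene's strand, ending at the base before the start, and capitals mark matches on either strand to TGACNNNGC (antioxidant response element core), TGAGTCAGC (MAF-type AP-1 site), AANNGAAA (interferon regulatory factor core), TTCNNNGAA (STAT site) or GGGNNTTCC (kB site). The windows lie at chr16:67936851-67937100 (PSMB10, minus strand), chr6:32853942-32854191 (PSMB9, plus strand), chr6:32844048-32844297 (PSMB8, second start, minus strand), chr14:23034901-23035150 (PSMB5, second start, minus strand) and chr17:67366578-67366827 (PSMD12, minus strand).
PSMB10: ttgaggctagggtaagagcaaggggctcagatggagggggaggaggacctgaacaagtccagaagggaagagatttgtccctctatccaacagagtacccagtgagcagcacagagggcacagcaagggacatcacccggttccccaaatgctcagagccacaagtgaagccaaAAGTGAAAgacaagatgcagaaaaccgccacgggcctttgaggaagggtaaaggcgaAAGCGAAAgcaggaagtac
PSMB9: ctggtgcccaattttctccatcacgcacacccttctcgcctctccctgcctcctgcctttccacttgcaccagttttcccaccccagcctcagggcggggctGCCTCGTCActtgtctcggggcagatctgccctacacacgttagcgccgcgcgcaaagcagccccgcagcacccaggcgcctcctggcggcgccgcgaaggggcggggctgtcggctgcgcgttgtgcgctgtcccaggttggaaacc
PSMB8: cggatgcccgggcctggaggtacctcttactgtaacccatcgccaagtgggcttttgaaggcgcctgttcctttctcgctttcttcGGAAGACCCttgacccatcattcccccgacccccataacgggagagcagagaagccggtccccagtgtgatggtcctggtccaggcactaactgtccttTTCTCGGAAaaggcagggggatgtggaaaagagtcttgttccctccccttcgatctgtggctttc
PSMB5: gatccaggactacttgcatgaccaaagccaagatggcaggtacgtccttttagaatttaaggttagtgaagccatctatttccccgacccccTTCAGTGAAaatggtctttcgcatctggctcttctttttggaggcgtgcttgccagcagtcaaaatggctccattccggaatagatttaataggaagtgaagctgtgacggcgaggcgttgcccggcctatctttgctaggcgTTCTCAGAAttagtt
PSMD12: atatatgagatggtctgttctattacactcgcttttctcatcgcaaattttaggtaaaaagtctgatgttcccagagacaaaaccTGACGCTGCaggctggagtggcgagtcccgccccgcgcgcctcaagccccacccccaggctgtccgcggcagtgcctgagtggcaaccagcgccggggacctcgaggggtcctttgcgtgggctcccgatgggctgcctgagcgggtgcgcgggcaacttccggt

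In PSMB10, 2 interferon regulatory factor cores begin 76 and 19 bases before the start. PSMB9 holds an antioxidant response element core at 148 bases, PSMD12 holds one at 165 bases, and PSMB8 holds a kB site at 164 bases and a STAT site at 65 bases. PSMB5 holds STAT sites at 158 and 15 bases in this window, and none of the 5 motifs in the window of its other start. The window of the other PSMB8 start likewise holds none of the 5 motifs. Over the 43 members, the antioxidant response element core was found in 13 (30.2%), against 13.2% of 27305 genes with a window. The interferon regulatory factor core was found in 11 (25.6%), against 23.9% of all genes, the STAT site in 7 (16.3%), against 8.09%, and the kB site in 6 (13.95%), against 7.01%. TGAGTCAGC, which can overlap the first motif, was in 1 member, PSMD9 (2.33%), against 0.47% of genes. Genes with several windows had more sequence to match, and a match describes letters, not binding.

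In the regulatory particle, 7 of the 8 lid genes (87.5%) and 7 of the 9 base genes (77.8%) had a log2 fold change below 0. Over all tested genes 49.4% were below 0. Of the base genes below 0, PSMC6 stood at only -0.0002. None of the lid and base genes passed the test. The 8 lid genes summed to 725 and 679 CPM in shGREM1 and 837 and 759 CPM in shControl, a difference of -12.0%, and 5 of them (62.5%) were lower without overlap between groups, against 26.6% of all tested genes. PSMD12, a scaffold subunit of the lid, had the lowest value, with 55.6 and 49.99 CPM in shGREM1 and 73.3 and 62.4 CPM in shControl, a log2 fold change of -0.36 ± 0.12 (SE; adjusted p = 0.0868 by edgeR, and 0.0273 without shGREM1-1). PSMD6 and PSMD8 also had an unadjusted p under 0.05, at log2 fold changes of -0.27 and -0.25 (adjusted p = 0.156 and 0.155 by edgeR). In all, 3 lid genes (37.5%) were lower at that unadjusted threshold, against 12.1% of all tested genes. PSMD14, the deubiquitinase that cuts ubiquitin chains from substrates, stood at -0.10 with overlapping groups (adjusted p = 0.662 by edgeR). PSMD11 was the lid gene with the highest value, 108 and 95.4 CPM in shGREM1 and 105 and 89.8 CPM in shControl, a log2 fold change of 0.06 (adjusted p = 0.820 by edgeR). The difference between lid and base was not tested.

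The 6 ATPases of the base, PSMC1 to PSMC6, summed to 663 and 618 CPM in shGREM1 and 719 and 647 CPM in shControl, a difference of -6.24% with overlapping groups. PSMC4 was the lowest, with 116 and 115 CPM in shGREM1 and 147 and 131 CPM in shControl, a log2 fold change of -0.27 ± 0.11 (SE; adjusted p = 0.146 by edgeR). PSMC3 was the highest, with 173 and 164 CPM in shGREM1 and 172 and 140 CPM in shControl, a log2 fold change of 0.11 ± 0.12 (SE; adjusted p = 0.641 by edgeR). The partners of 1 ring therefore took values on both sides of 0. The scaffold and ubiquitin receptor genes of the base ran from -0.14 for PSMD2 (adjusted p = 0.489 by edgeR), with 352 and 324 CPM in shGREM1 and 404 and 344 CPM in shControl, to 0.04 for PSMD4 (adjusted p = 0.864 by edgeR), with 131 and 116 CPM in shGREM1 and 121 and 118 CPM in shControl.

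The activators that can cap the core in place of the regulatory particle had log2 fold changes of -0.28 to -0.02. PSME3, the nuclear activator subunit (PA28 gamma), had 97.2 and 103 CPM in shGREM1 and 132 and 110.4 CPM in shControl, a log2 fold change of -0.28 ± 0.12 (SE; adjusted p = 0.156 by edgeR). PSME1, an interferon-inducible subunit of the related cytoplasmic activator, was nearest to 0 among them, with 103 and 89.7 CPM in shGREM1 and 95.0 and 101 CPM in shControl (log2 fold change -0.02; adjusted p = 0.940 by edgeR). PSMF1, which inhibits the core in vitro, had 69.8 and 68.8 CPM in shGREM1 and 79.9 and 68.8 CPM in shControl, a log2 fold change of -0.10 (adjusted p = 0.652 by edgeR).

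PSMG3, the member that fell, encodes PAC3, a chaperone that works with PSMG4 (PAC4) while the alpha ring is assembled. It had 710 and 720 counts in shGREM1 and 1092 and 964 counts in shControl, or 43.3 and 44.8 CPM in shGREM1 and 70.7 and 62.4 CPM in shControl. The groups were well apart, with means of 44.0 ± 1.03 CPM in shGREM1 and 66.6 ± 5.86 CPM in shControl (SD, n = 2 each). The log2 fold change was -0.60 ± 0.12 (SE; adjusted p = 0.0065 by edgeR, and 8.2e-05 to 0.0616 over the alternatives), or -33.9%. Without shControl-1 the call was lost, at a log2 fold change of -0.51 and an edgeR adjusted p of 0.0616. The gene (ENSG00000157778) lies on the minus strand of chromosome 7, 1567330 to 1571005 (GRCh38). Its exons share 60 bases, 3.06% of their length, with PSMG3-AS1 on the opposite strand, which had 200 and 198 counts in shGREM1 and 127 and 176 counts in shControl.

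Its partner PSMG4 had the highest value of all members, 17.5 and 18.7 CPM in shGREM1 and 16.0 and 15.2 CPM in shControl, without overlap, at a log2 fold change of 0.22 ± 0.16 (SE; adjusted p = 0.455 by edgeR). PSMG1 and PSMG2, which form the other core chaperone pair, stood at -0.09 and -0.08 (adjusted p = 0.832 and 0.727 by edgeR). Chaperones of the base overlapped between groups for all 3 genes, with PSMD9 lowest at -0.18 (adjusted p = 0.645 by edgeR) and PSMD5 highest at 0.03 (adjusted p = 0.925 by edgeR). PSMC3IP, with no role in the proteasome, had a log2 fold change of -0.07 (adjusted p = 0.900 by edgeR).

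Levels were compared between members as counts per kilobase, scaled so that the values of all genes in a library sum to 1000000. They used the table's gene lengths, which equal the summed exon bases of GENCODE 29 for all 49 genes. PSMA7 was highest, at a mean level of 571 in shGREM1 and 639 in shControl, then PSMB3 (422 in shGREM1, 448 in shControl) and PSMB4 (344 in shGREM1, 348 in shControl). PSMA6 was lowest, at 0.93 in shGREM1 and 1.43 in shControl, although alpha subunits are present in equal number in each core particle. PSMA1, PSMA2, PSMA6, PSMB10 and PSMD9 share at least 50% of their coding bases with an annotated read-through or overlapping gene on the same strand, from 58.3% for PSMB10 to 97.1% for PSMA2. These 5 genes took places between 39 and 47 of 47 in shControl, with medians of 4.17 in shGREM1 and 4.60 in shControl, against medians of 76.2 in shGREM1 and 86.4 in shControl for the other 42. Of the other 42, PSMC1, PSMG1, PSMC3IP and PSMG4 took places 40, 42, 43 and 44. PSMC1 shares 75.8% of its exon bases with NRDE2 on the opposite strand, and PSMG1 shares none with any gene. With the length of the GENCODE basic transcripts in place of all exons, the 5 genes named first took places between 40 and 47. The genes AC018523.2, AC010132.3, AL121594.1, AC040162.1 and AC069503.2, which overlap them, had 0 to 37 counts in a library, of which AC040162.1, over PSMB10, had 17 and 23 in shGREM1 and 19 and 37 in shControl. PSMD9 also shares 436 exon bases with WDR66 on the same strand, which had 106 and 50 counts in shGREM1 and 96 and 53 counts in shControl. How reads in shared exons were counted is not given in the sources used here, and the part of the overlap in these low levels was not tested.

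**Figure D4:**
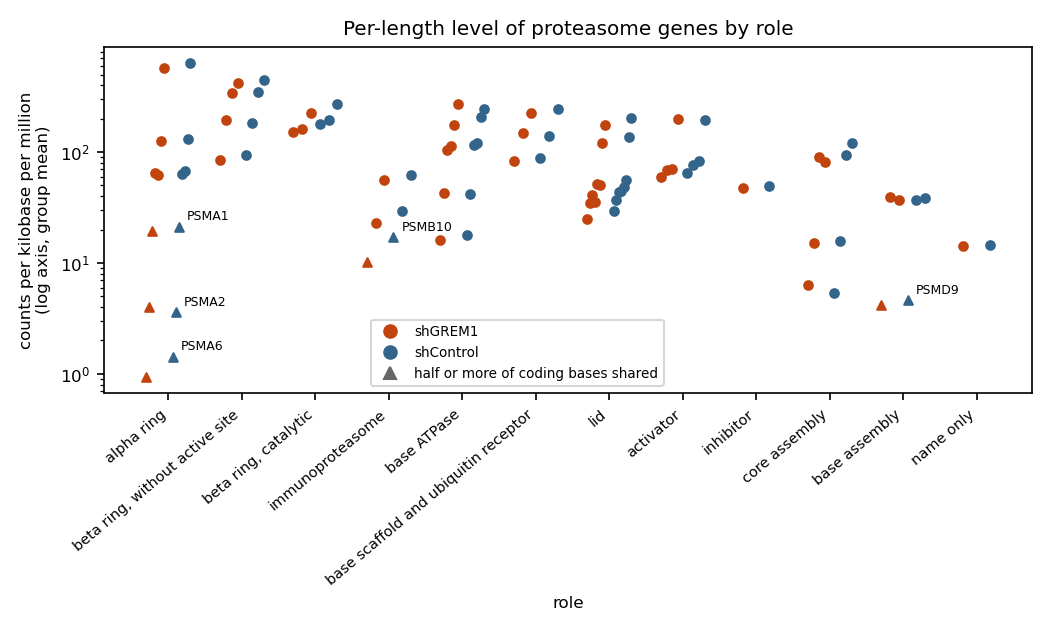
Mean level of each tested member on a log axis, grouped by role, for shGREM1 and shControl. Levels are counts per kilobase, scaled so that all genes of a library sum to 1000000. The 5 genes that share at least 50% of their coding bases with another gene on the same strand lie at the low end, between places 39 and 47 of 47. PSMC1, PSMG1, PSMC3IP and PSMG4 lie within the same places.

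Beyond the members, 30 other genes of the ubiquitin and proteasome system were measured: subunits and bound enzymes without a PSM name, transcriptional regulators, shuttle factors, unfoldase subunits and ubiquitin genes. By edgeR's test 3 of these fell (10%), against 4.12% of all tested genes, and 0 rose, against 3.57%. At an unadjusted p under 0.05 the count was 8 lower (26.7%), against 12.1% of all tested genes, and 0 higher, against 11.1%. Of the 30 genes, 22 (73.3%) were below 0, against 49.4% of all tested genes, with a median of -0.11. All 3 that fell belong to the 7 regulators. MAFF, a small MAF protein that pairs with NFE2L1 or NFE2L2 on antioxidant response elements, had 34.0 and 34.1 CPM in shGREM1 and 51.6 and 54.0 CPM in shControl, a log2 fold change of -0.63 ± 0.12 (SE; adjusted p = 0.00428 by edgeR). MAFK, another small MAF, had 134 and 133 CPM in shGREM1 and 187 and 161 CPM in shControl, a log2 fold change of -0.38 ± 0.11 (SE; adjusted p = 0.0448 by edgeR, and 0.375 without shControl-1). NFE2L2, the oxidative stress regulator NRF2, had 74.97 and 59.4 CPM in shGREM1 and 87.6 and 95.5 CPM in shControl, a log2 fold change of -0.45 ± 0.12 (SE; adjusted p = 0.0407 by edgeR). NFE2L2 lost its call without shGREM1-2, shControl-1 or shControl-2, at edgeR adjusted p values of 0.177, 0.0675 and 0.178.

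NFE2L1, the regulator best known for raising proteasome genes, had 248 and 220 CPM in shGREM1 and 187 and 212 CPM in shControl, without overlap and in the other direction from the members' median (log2 fold change 0.23 ± 0.11, SE; adjusted p = 0.239 by edgeR). POMP, the chaperone that places the beta subunits, had 48.2 and 41.9 CPM in shGREM1 and 55.5 and 55.8 CPM in shControl (log2 fold change -0.31; adjusted p = 0.136 by edgeR), and it passed when counts were corrected for gene length and GC content. ADRM1, a ubiquitin receptor of the base, had 99.0 and 109 CPM in shGREM1 and 144 and 110.4 CPM in shControl (log2 fold change -0.29; adjusted p = 0.187 by edgeR). Protein levels and the activity of these factors were not measured.

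**Figure D5:**
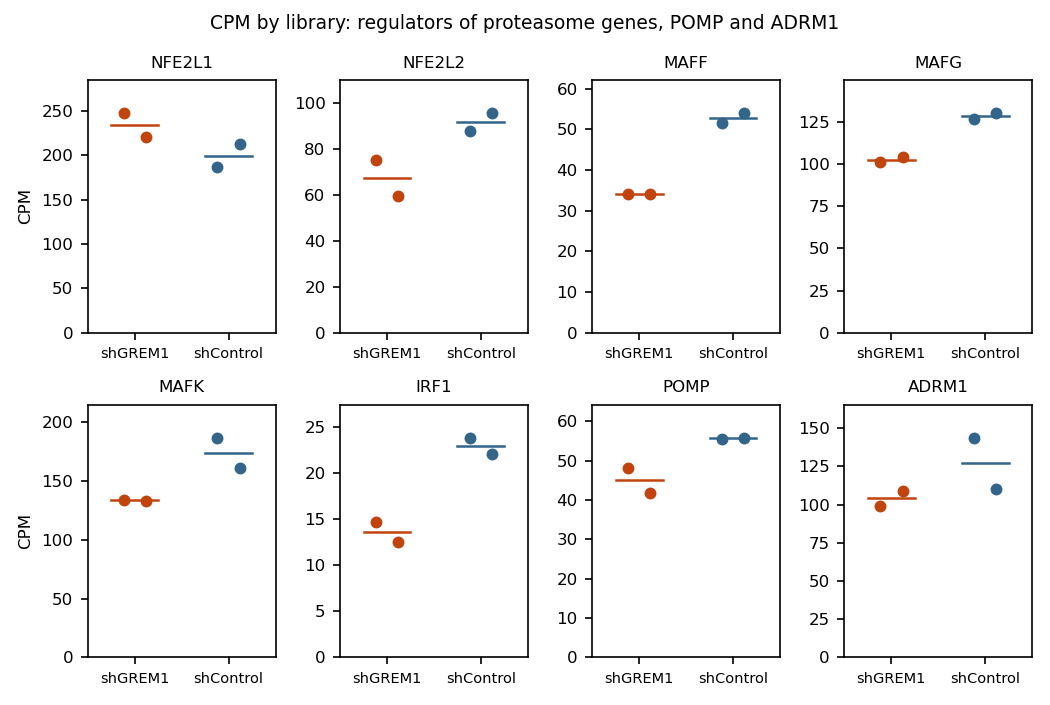
CPM in each library of regulators of proteasome genes, of IRF1 and of the non-PSM genes POMP and ADRM1, with shGREM1 left of shControl and lines at group means. MAFF, MAFK, NFE2L2 and IRF1, which passed the test, have both shGREM1 points below both shControl points, while NFE2L1 has them above.

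Beside the immunoproteasome genes, 10 genes of antigen processing and 3 interferon regulators were measured. Of the 10 antigen processing genes, 9 (90%) were below 0, against 49.4% of all tested genes, with a median of -0.16. By edgeR's test 0 of the 10 fell and 0 rose, against 4.12% and 3.57% of all tested genes. At an unadjusted p under 0.05 the count was 2 lower (20%), against 12.1% of all tested genes, and 0 higher, against 11.1%. Of the 3 regulators, all below 0, IRF1 was the 1 that fell. IRF1, a transcription factor known to induce PSMB8, PSMB9 and PSMB10, had 14.6 and 12.5 CPM in shGREM1 and 23.8 and 22.03 CPM in shControl, a log2 fold change of -0.76 ± 0.16 (SE; adjusted p = 0.0104 by edgeR). Without shControl-1 its edgeR adjusted p was 0.0728. TAP1, the peptide transporter gene that neighbours PSMB9, had 71.7 and 60.6 CPM in shGREM1 and 83.0 and 84.5 CPM in shControl (log2 fold change -0.34; adjusted p = 0.0902 by edgeR).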

How the data were processed

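RNA-seq was done on U2OS cells labelled GREM1 knockdown (shGREM1) or control (shControl), with 2 libraries each. Per the labels' protocols, total RNA was purified with an RNeasy kit and made into libraries with a SMARTER kit. The values the authors deposited are raw read counts, 1 per gene and library. Per the submitters' processing notes, HISAT2 2.0.5, StringTie 1.3.3b and DESeq2 were used. The read counter, and whether it used strand, is not given in the sources used here. Although mm10, a mouse build, stands in those notes, the genes are human and match GENCODE 29 (GRCh38). Columns named by abbreviations were read as the libraries whose titles they abbreviate.

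Genes were kept with filterByExpr of edgeR 4.0.16 (minimum count 10, minimum total 15), in R 4.3.3, which left 18442. TMM scaling and a robust quasi-likelihood fit on group alone were used, with Benjamini-Hochberg adjustment over all kept genes and a threshold of 0.05. "Rose" and "fell" refer to genes past it. SE was derived from the F statistic. Alternatives were other scalings and filters, DESeq2 1.42.0, voom in limma 3.58.1, protein-coding genes only, length correction, a replicate block and leaving out each library. In that last setting the lone library is taken to have the spread of the other group. Length with GC correction, read-through counts added to 5 members, and basic transcript length were chosen after seeing the data. The fit was tested on simulated data, and the outcome is not reported here. The members, lists and tests were chosen with earlier results of these data known. Named genes were members that passed, the highest and lowest of each role, the immunoproteasome and catalytic genes, those not tested, other listed genes that passed, and NFE2L1. POMP, ADRM1, TAP1, EPCAM, VIM and other genes named outside this rule were added for their role after their values were seen. A marker gene withheld for evaluation is not reported here. Figures were drawn with matplotlib 3.10.9.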

Additional observations from a re-analysis of the deposited data

How the results depend on the processing

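Over 15 alternatives and 29 named genes, 397 of 434 values kept direction and side of the threshold, 12 lost the threshold, 10 gained it and 15 turned sign, of which 1 without a library being left out. That 1 was PSME1, at 0.012 under upper-quartile scaling. The number of members that fell, 1 as reported, was 3 with no count filter (PSMB10, PSMD12 and PSMG3), 2 with a mean CPM of 5 or more, 2 with protein-coding genes only, and 0 to 4 with a library left out (PSMB7, PSMB9, PSMD12 and PSMG3 without shGREM1-1, none without shControl-1); the number that rose was 0 under every alternative run. Calls gained when a library is left out rest on the spread of fewer samples. The correlation of same-numbered libraries' deviations was -0.007 over all tested genes, which cannot exclude a shared effect in some of them. The median member was lower in replicate 2 of both groups, by 0.08 in shGREM1 and 0.11 in shControl. With the replicate block 3 members fell, PSMB10, PSMD12 and PSMG3, and 2 genes of the antigen processing and interferon regulator list were called. Over all 18442 tested genes, 1273 fell and 1101 rose with the block, against 759 and 659 as reported. Of the other proteasome system genes, 3 were called as reported. Under upper-quartile scaling 1 (MAFF) was called, with limma-voom 1 (MAFF) and with length correction 2 (MAFF and NFE2L2). With length and GC correction the number was 4 (MAFF, NFE2L2, POMP and UBQLN1). Over all 18442 tested genes, 631, 660, 776 and 766 fell in these settings, in that order. Of the antigen processing and interferon regulator genes, 1 was called as reported (IRF1). Calls in both lists changed with some libraries left out. The members' median was -0.16 to -0.11 under the other settings and -0.21 to -0.09 with a library left out, and upper-quartile scaling moved the median of all genes to 0.04. With a library left out, the log2 fold change took both signs for PSMA2 (-0.026 to 0.25), PSMB1 (-0.050 to 0.14), PSMC3 (-0.041 to 0.26), PSMC3IP (-0.31 to 0.22), PSMD11 (-0.054 to 0.17), PSMD4 (-0.050 to 0.13), PSMD5 (-0.12 to 0.19), PSMD9 (-0.35 to 0.0021), PSME1 (-0.13 to 0.077) and PSMF1 (-0.21 to 0.0037). The causes were not tested. The members' median difference between groups was -0.15. Between libraries of a group, replicate 2 minus replicate 1, it was -0.08 in shGREM1 and -0.11 in shControl.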

Other observations

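The table also holds 37 rows with a PSM symbol that are not protein-coding. Of these, 32 are pseudogenes, and 17 of the pseudogenes had 0 counts in every library. Only 5 of the 37 were tested, and 0 passed the edgeR threshold. PSMA3-AS1, an antisense RNA at PSMA3, had 1153 and 1145 counts in shGREM1 and 1010 and 1112 counts in shControl (log2 fold change 0.04; adjusted p = 0.871 by edgeR). PSMG3-AS1, the antisense RNA at PSMG3, had a log2 fold change of 0.32 ± 0.20 (SE; adjusted p = 0.382 by edgeR), above 0 where PSMG3 was below 0.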
